A study of Mus musculus with 22 samples.

Results

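Double-positive thymocytes of 8-week-old mice were compared between animals in which E2a was deleted with Vav-Cre and controls that kept E2a. The comparison used 6 of the 22 samples of the series: 3 controls of genotype E2aF/F and 3 knockouts of genotype VavCre E2aF/F, all untreated. E2aF/F denotes E2a alleles flanked by recombination sites, carried by both groups, and the labels name no Cre for the controls. All 6 samples were thymus cells sorted as CD45.1+ and CD4+CD8+, and the transplanted mice of the same age were left out. Of the 43430 genes in the deposited 8-week table, the 10958 with at least 1 FPKM (fragment counts normalized for gene length and library depth) in at least 3 of the 6 libraries were tested. The labels do not say whether a library came from 1 mouse or from several, and p-values describe the spread among these samples only. Vav-Cre is active across blood cell lineages and not in T cells alone.

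E2a is the historical name of Tcf3, which encodes the E proteins E12 and E47. E proteins are transcription factors that bind the E-box motif CANNTG as dimers, and the Id proteins inhibit them by forming dimers that cannot bind DNA. In the thymus, E proteins act with Notch signalling to commit progenitors to the T lineage and hold double-positive cells, which carry both CD4 and CD8, at that stage until a T cell receptor signal is received. Mice without E2a are known to develop T cell leukaemia.

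E-boxes are therefore shown early, in promoters of the genes with the largest changes described further on. Of these 24 genes 20 had a promoter in the RefSeq table, and those of 3 held the E protein-preferred forms CACCTG or CAGGTG, which are each other's reverse complement, in the 250 bases before the start site. The letters are on the strand of the gene, 5′ to 3′, in GRCm38.p6, with every CANNTG in capitals. Arap2, a signalling adaptor, and Cldn4, a tight junction protein, fell, while the granzyme Gzma rose. The windows are chr5:62766178-62766427 for Arap2, chr5:134946935-134947184 for Cldn4 and chr13:113100982-113101231 for Gzma, all on the minus strand.
Arap2: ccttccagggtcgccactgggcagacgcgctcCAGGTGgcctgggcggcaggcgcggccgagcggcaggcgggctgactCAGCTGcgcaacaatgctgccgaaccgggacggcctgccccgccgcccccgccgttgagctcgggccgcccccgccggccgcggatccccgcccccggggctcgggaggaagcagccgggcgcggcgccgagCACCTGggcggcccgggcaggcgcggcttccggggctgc
Cldn4: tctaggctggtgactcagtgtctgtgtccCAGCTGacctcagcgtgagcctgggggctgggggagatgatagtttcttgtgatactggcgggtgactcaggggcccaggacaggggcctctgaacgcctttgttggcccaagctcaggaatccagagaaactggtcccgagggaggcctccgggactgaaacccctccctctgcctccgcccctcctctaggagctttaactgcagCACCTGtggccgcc
Gzma: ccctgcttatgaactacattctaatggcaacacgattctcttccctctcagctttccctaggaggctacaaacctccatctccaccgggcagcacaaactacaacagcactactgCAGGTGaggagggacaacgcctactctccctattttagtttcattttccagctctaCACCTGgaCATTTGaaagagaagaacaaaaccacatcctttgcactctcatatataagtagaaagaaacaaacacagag
In windows of this length, CANNTG was found in 66.2% of all 32851 RefSeq promoters, and CACCTG or CAGGTG in 17.2%. Among promoters of tested genes the latter share was 14.97%, against 17.4% for genes called lower and 13.8% for genes called higher. The shares are descriptions of sequence, and binding was not measured.

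Tcf3 itself lay at 7.59, 7.52 and 7.49 FPKM in the controls and at 2.13, 1.23 and 2.01 FPKM in the knockouts. The gene is on chromosome 10 (80409514 to 80433647, minus strand, mm10). No knockout library reached a control, and the log2 change was -1.63 (SE 0.14, adjusted p = 0.000403, limma), on the log2(FPKM + 1) scale used for every change here. Recovered read counts were 4197, 2568 and 4975 in the controls and 1288, 555 and 1191 in the knockouts, so the remaining signal was not a matter of a few reads. FPKM summed over all exons, and the labels do not say which exons lie between the recombination sites. Of the other E proteins, Tcf12, which encodes HEB, was not called at 14.7 ± 1.6 FPKM in controls and 17.5 ± 2.0 in knockouts (SD, n = 3 each). Id2, an inhibitor of E proteins, rose from 4.57, 7.12 and 3.85 to 24.1, 23.3 and 10.4 FPKM (log2 change 1.66, SE 0.35, adjusted p = 0.0101). Id3 overlapped between the groups at 21.0 to 27.9 FPKM in controls and 12.7 to 31.7 FPKM in knockouts.

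Several properties of the libraries separated the groups as well and stand before the results they touch. All 3 controls expressed Xist, at 101.2 to 117 FPKM, with Ddx3y and Eif2s3y at 0, while all 3 knockouts had Xist under 0.01 FPKM and both Y genes at 10.1 to 15.7 FPKM. Sex and genotype can therefore not be told apart at 8 weeks, for X and Y genes or for any other gene. Read totals over genes with recovered counts were 8619277 to 17191508 in controls and 10351934 to 14778513 in knockouts. FPKM summed to 207240 to 209616 in controls and to 224491 to 242035 in knockouts, and the 10 most abundant genes took 7.78% to 8.09% against 10.3% to 11.97% of it. Correlations of log2 values were 0.981 to 0.985 among controls, 0.947 to 0.957 among knockouts and 0.872 to 0.891 between the groups, and no pair of libraries was identical.

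Genes of chromosome 15 were raised as a block in the knockouts. Their median log2 ratio to the controls, set against the median of all autosomes, was 0.74, 0.60 and 0.67 in knockouts 1, 2 and 3, against -0.02 to 0.02 in the controls. Chromosome 10 stood at 0.40 in knockout 3 and at -0.03 and -0.05 in knockouts 1 and 2. All other autosomes lay between -0.12 and 0.20 in the knockouts, the highest being chromosome 18 in knockout 3. Of 430 tested chromosome 15 genes 274 were higher in the knockout (63.7%, against 22.9% of all tested genes) and 13 were lower (3.02%, against 22.8%), with a median log2 change of 0.55. DNA copy number was not measured. Named genes on chromosome 15 are marked as such, and the part of the chromosome-wide rise in each of them was not tested.

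**Figure D1:**
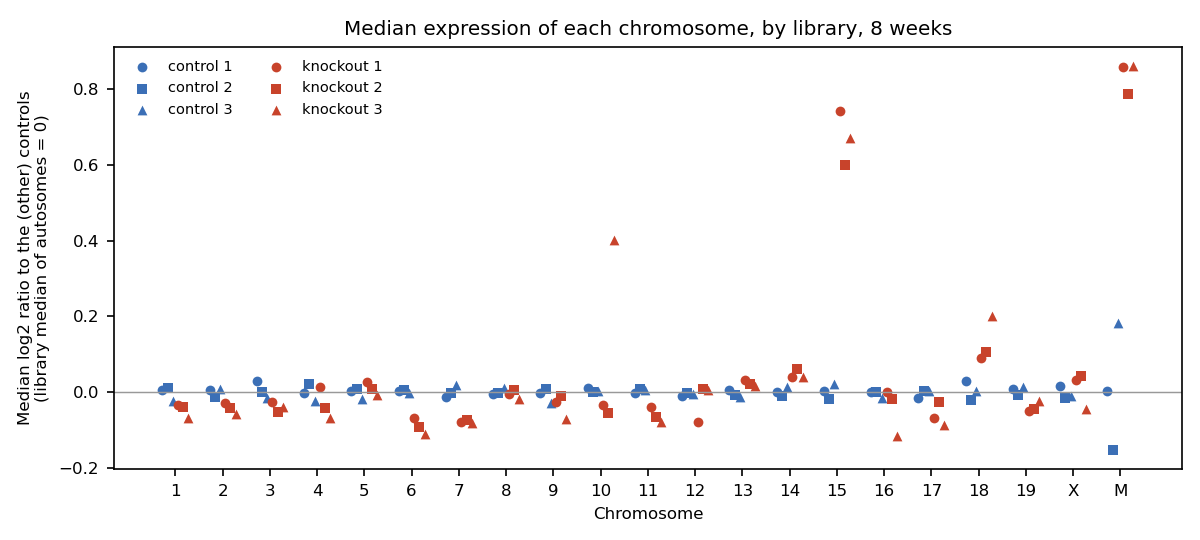
Median log2 ratio of each library to the controls (a control is compared with the other controls) for genes with a mean of at least 5 FPKM in the controls, by chromosome, relative to the library's autosomes. Blue symbols are the 3 controls and red symbols the 3 knockouts. Chromosome 15 lies at 0.60 to 0.74 in every knockout, chromosome 10 at 0.40 in knockout 3, and the mitochondrial genes (M) at 0.79 to 0.86.

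Markers of the labelled cell type were high, and defining markers of other cells were mostly near 0. Cd4, Cd8a, Cd8b1, Rag1 and Cd3e were at 163 FPKM or more in all 6 libraries. Early progenitor markers were low, with 15 of 18 below 1 FPKM in every library, including Spi1, Lmo2, Meis1 and Cd44. The 12 B cell markers summed to 186 to 244 FPKM in controls and 100 to 141 in knockouts, of which Ighm made up most, and Pax5 and Ebf1 were under 0.2 FPKM throughout. Macrophage and granulocyte markers (14) summed to 2.71 to 6.73 FPKM in controls and 5.53 to 13.2 in knockouts, with Csf1r and Adgre1 under 0.02 FPKM. Dendritic cell markers (12) summed to 6.32 to 7.55 and 9.77 to 13.1 FPKM, natural killer cell markers (9) to 1.17 to 2.48 and 2.07 to 3.99, and erythroid markers (10) to 21.5 to 41.2 and 27.6 to 42.8. The 15 stromal markers summed to 9.62 to 10.4 FPKM in controls and 16.6 to 32.5 in knockouts, and Foxn1, Aire, Krt5 and Pdgfra were under 0.1 FPKM. Mast cell and platelet markers (8) stayed under 0.3 FPKM in sum, with 5 of them at 0 in all 6 libraries. In bulk RNA, fewer cells of a type and less RNA per cell cannot be told apart.

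Of the 10958 genes, 2511 were higher in the knockout (22.9%) and 2494 were lower (22.8%) at an adjusted p under 0.05, so 45.7% were called in either direction. Every knockout lay on the same side of every control for 6432 genes (58.7%). Changes of at least 1 on the log2 scale were found in 594 of the genes called higher and 519 of those called lower. The median standard error of a change was 0.11, and the median change of all genes was -0.02. When FPKM were scaled to a common sum per library, 1891 genes were higher and 3381 lower, so that 35.9% of calls were rises against 50.2% in the deposited scale, and the median change moved to -0.14. A fit that also held the 4 transplanted libraries of the table, which share its estimate of spread, called 541 genes higher and 518 lower. In that fit 58 of the genes chosen by the naming rule were no longer called, with adjusted p of up to 0.672 (Mki67). Those described further on are Id2, Hes1, Il2ra, Spo11, Ccr9, Cd28, Lck, Cd5, Pdcd1, Il7r, Klf2, Runx3, Tcrg-C1, Tcrg-C4, Cd163l1, Srm, Cad, Mcm3, Mcm4, Mcm5, Mcm6, Cdc6, Ccnb2, Mki67, Cdkn1c, Cdk6, Cdkn1a, Cdk4, Fas, Bbc3, Bcl2l1, Bid, Bst2, Stat2, Jak3, Tpi1, Ldha, Il4ra, H1f0, H1fx, Hsp90aa1 and Cxcr4, beside Xist, Eif2s3y and Ddx3y. Other list members are given as examples, and their calls in that fit stand only in the counts of their lists.

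The filter on low values fixed the direction of some members. Of the genes tested, 303 were below 1 FPKM in every control and passed through the knockouts, of which 283 were called higher, and 243 were below 1 FPKM in every knockout, of which 225 were called lower. Such genes could hardly enter the test without differing, so counts and medians that hold them do not support a direction of their list. Among list members called higher they were Dtx1, Hes1, Heyl, Myc, Il7r, Runx3, Ly6c1, Tcrg-C4, Cd163l1, Fos, Hspa1a, Hspa1b, Cdkn1c, Hk2, Hist1h1e and H2-Ab1. Of the 9 falls among the positive selection genes described further on, 3 were of genes below 1 FPKM in every knockout.

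The largest rises included genes of several unrelated functions. Ly6c1, a surface antigen of mature and memory T cells on chromosome 15, was at 0.08 to 0.17 FPKM in controls and at 55.2, 74.8 and 39.6 FPKM in knockouts (log2 change 5.63, SE 0.22, adjusted p = 4.99e-05). Ly6d, another member of that antigen cluster on chromosome 15, rose from 92.2, 99.0 and 118 FPKM to 1978, 965 and 1194 FPKM. The inducible heat shock genes Hspa1b and Hspa1a, neighbours on chromosome 17 with near-identical sequence whose reads are uncertain between them, were below 0.4 FPKM in every control. In the knockouts Hspa1b stood at 31.3, 33.6 and 38.3 FPKM (log2 change 4.81, SE 0.10) and Hspa1a at 14.0, 16.0 and 15.8 FPKM (3.96, SE 0.08). Every knockout exceeded every control by a wide margin for these 4 genes, which were chosen for large rises without overlap.

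Igf2bp3, an RNA-binding protein of fetal blood cells, rose from 0.38, 0.28 and 0.32 FPKM to 18.7, 19.7 and 15.9 FPKM (log2 change 3.85, SE 0.10, adjusted p = 1.05e-05). Fbln1, an extracellular matrix protein on chromosome 15, rose from 0.10 to 0.16 FPKM to 17.0, 12.4 and 18.4 FPKM. Sdc1, the proteoglycan syndecan 1, was nearly the same in the 3 knockouts at 13.3, 13.2 and 13.4 FPKM against 0.31 to 0.40 FPKM in controls (log2 change 3.40, SE 0.07). Gzma, the granule protease granzyme A whose promoter is printed above, was already present in controls at 32.7, 28.3 and 39.8 FPKM and rose to 335, 325 and 481 FPKM (3.45, SE 0.19, adjusted p = 0.000116). Fos, an immediate early transcription factor, rose from 0.17 to 0.55 FPKM to 9.77, 8.78 and 16.4 FPKM, and Dtx1 is described with the Notch genes. The Y genes Eif2s3y and Ddx3y complete the 12 and were listed at 0 in the controls.

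Among the largest falls, several genes went from a moderate level to almost none. Xist leads them, and its level goes with the sex of the libraries. Car2, carbonic anhydrase 2, fell from 16.0, 15.7 and 17.2 FPKM to 0, 0.02 and 0.24 FPKM, which corresponded to 0, 1 and 15 reads against 555 to 1179 in the controls (log2 change -3.997, SE 0.11, adjusted p = 1.27e-05). Arap2 fell from 14.5, 14.1 and 15.2 FPKM to 0.14, 0.22 and 0.26 FPKM (-3.69, SE 0.08, adjusted p = 5.33e-06). Dhrs3, a retinaldehyde reductase, fell from 15.2, 17.3 and 16.8 FPKM to 0.61, 0.21 and 0.54 FPKM. Every knockout lay below 1 FPKM for these 3 genes, chosen for large falls without overlap, and every control above 14.

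Gabarapl1, an autophagy protein, was at 10.003, 8.47 and 9.14 FPKM in controls and at 0, 0 and 0.36 FPKM in knockouts (log2 change -3.20, SE 0.15). Cldn4, whose promoter also appears above, went from 9.57, 10.6 and 12.6 FPKM to 0.40, 0.19 and 0.85 FPKM (-3.02, SE 0.18, adjusted p = 0.000157), and the cytoskeletal protein gene Tes from 8.997, 9.08 and 6.36 FPKM to 0.11, 0.03 and 0.23 FPKM. BB031773 and Tdrp, whose functions are little described, fell by 4.16 and 3.13. The small GTPase gene Arl5c, an abundant message in controls at 173, 188 and 176 FPKM, fell to 6.84, 18.6 and 5.33 FPKM (-4.18, SE 0.40). Plxnd1, a semaphorin receptor that guides double-positive cells within the thymus, fell from 197, 209 and 206 FPKM to 13.8, 21.9 and 10.03 FPKM (-3.72, SE 0.25). Knockout 2 kept the most of both abundant transcripts. Rag2 is described with the recombination genes.

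**Figure D2:**
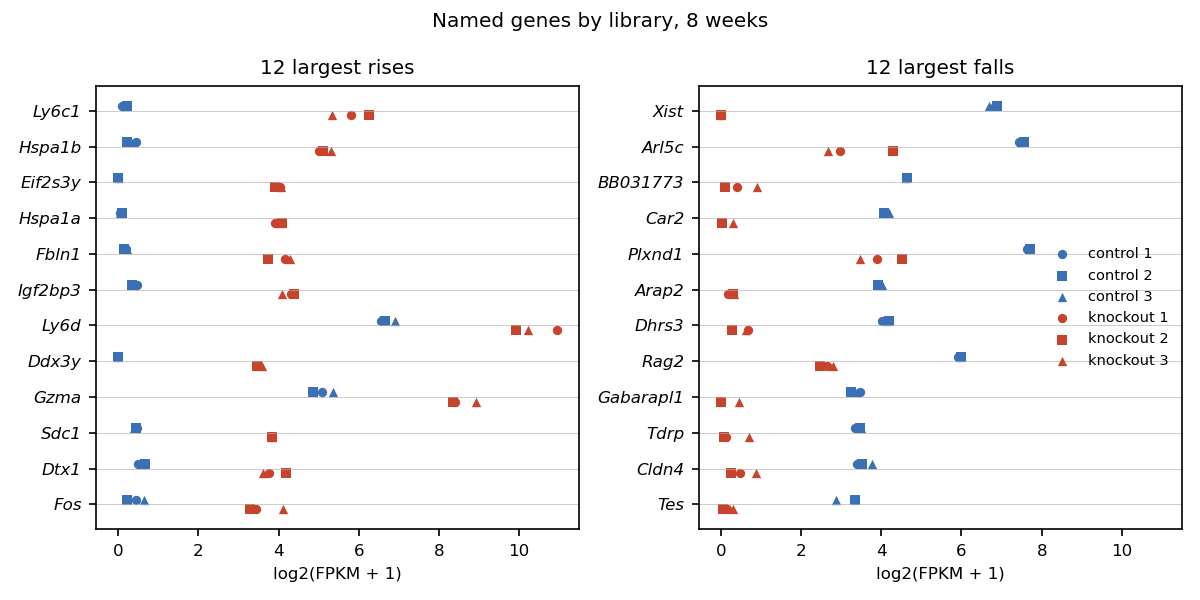
log2(FPKM + 1) of the 12 named genes with the largest rises (left) and the 12 with the largest falls (right) in each library, controls in blue and knockouts in red, with 1 symbol per replicate number. No knockout overlaps a control for any of them, which the choice of these genes required.

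Notch1, Notch3 and several Notch targets rose. Of 13 tested members 8 rose (61.5%, against 22.9% of all tested genes) and 1 fell (7.69%, against 22.8%). The rises include Dtx1, Hes1, Heyl and Myc, which passed the filter through the knockouts, and of the other 9 members 4 rose and 1 fell. The median log2 change of 1.64 over the 13 holds Dtx1, Hes1, Heyl and Myc as well. It does not support a direction of the list. A further 2 members (Hes5 and Nrarp) were below 1 FPKM in all 6 libraries. The receptor gene Notch1 rose from 9.97, 10.6 and 11.6 FPKM to 65.8, 87.8 and 32.0 FPKM (log2 change 2.31, SE 0.34, adjusted p = 0.00285), with knockout 3 the lowest of the knockouts. Notch3 rose from 5.67, 4.99 and 7.50 FPKM to 23.4, 22.8 and 16.6 FPKM (1.64, SE 0.18), whereas Notch2 stood at 4.86 to 5.24 FPKM in controls and 4.18 to 5.34 FPKM in knockouts and was not called.

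The targets Dtx1, Hes1 and Heyl were below 0.6 FPKM in every control. Dtx1, a ubiquitin ligase induced by Notch, went from 0.40, 0.59 and 0.48 FPKM to 12.6, 17.3 and 11.3 FPKM (log2 change 3.29, SE 0.16, adjusted p = 7.48e-05). Hes1, a repressor, went from 0.02, 0 and 0 FPKM to 2.48, 4.87 and 2.25 FPKM, and Heyl from 0.03 to 0.09 FPKM to 4.61, 7.76 and 2.61 FPKM. For Notch1, Dtx1, Hes1 and Heyl the order of the knockouts was the same, with knockout 2 highest and knockout 3 lowest. Myc, a Notch target on chromosome 15, rose from 0.95, 0.73 and 0.79 FPKM to 16.5, 13.7 and 15.8 FPKM (3.16, SE 0.10, adjusted p = 1.95e-05).

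Il2ra, the interleukin-2 receptor alpha chain, differed most among the knockouts, at 3.87, 8.82 and 25.0 FPKM against 1.96 to 2.46 FPKM in controls. Its call (log2 change 1.77, SE 0.56, adjusted p = 0.0433) was lost without control 1 (adjusted p = 0.109), control 2 (0.111), control 3 (0.0936) or knockout 2 (0.0762). Ptcra, the alpha chain that pairs with the beta chain before the mature receptor forms, overlapped at 12.1 to 14.2 FPKM in controls and 5.90, 12.3 and 0.91 FPKM in knockouts. Maml1, a Notch coactivator, fell from 9.16 to 9.84 FPKM to 7.25 to 8.08 FPKM. Leaving out a control left 6 members called higher, and leaving out knockout 1, 2 or 3 left 3, 2 or 4. Without a knockout, Dtx1, Hes1, Heyl and Myc had fewer than 3 libraries at 1 FPKM and were not tested, and other members lost the call.

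Genes of the double-positive stage fell broadly. Of 19 tested members 13 fell, 1 rose and 5 were not called, with a median log2 change of -0.73, against 22.8% called lower among all genes. The recombinase gene Rag2 fell from 59.4, 63.0 and 61.5 FPKM to 5.31, 4.53 and 5.93 FPKM (log2 change -3.32, SE 0.09, adjusted p = 1.27e-05). Its partner Rag1 fell from 1022, 1088 and 1048 FPKM to 453, 330 and 377 FPKM (-1.45, SE 0.12, adjusted p = 0.000391). The fall was larger for Rag2 than for Rag1 in each knockout. Dntt, which encodes the terminal transferase that adds nucleotides at receptor junctions, was not called, at 471 to 494 FPKM in controls and 279, 506 and 198 FPKM in knockouts.

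The coreceptors fell as well. Cd4 was at 410, 422 and 460 FPKM in controls and 186, 165 and 163 FPKM in knockouts (log2 change -1.33, SE 0.08). Cd8b1 fell from 1303, 1437 and 1459 FPKM to 770, 538 and 638 FPKM, and Cd8a from 471, 504 and 533 FPKM to 297, 295 and 316 FPKM (-0.73, SE 0.08). The chemokine receptor gene Ccr9 fell from 92.6 to 97.3 FPKM to 50.7, 30.4 and 32.5 FPKM. Satb1, a chromatin organizer, fell by 0.96 and Spo11 by 1.40 on the log2 scale.

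The T cell identity factors did not share this fall. Tcf7, which encodes TCF1, was at 1130 to 1161 FPKM in controls and 1189 to 1224 FPKM in knockouts and was not called. Bcl11b and Lef1 overlapped between the groups, with knockout 2 the highest library for both (68.0 and 43.1 FPKM). Aqp11, an aquaporin gene, was the member that rose, from 22.7, 24.1 and 25.3 FPKM to 77.7, 48.0 and 58.2 FPKM. In the fit with the transplanted libraries, 3 members of the list were called lower.

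Components of the T cell receptor complex and of its proximal signalling were moderately lower. Of 16 tested genes 12 fell (75.0%, against 22.8% of all tested genes) and none rose (0 at an adjusted p under 0.05, limma). The median log2 change was -0.51. The costimulatory receptor gene Cd28 fell from 56.5 to 65.9 FPKM to 33.2 to 37.5 FPKM, and Lcp2, which encodes the adaptor SLP-76, from 43.5 to 47.8 FPKM to 24.4 to 29.2 FPKM. Cd247, the zeta chain, fell by 0.73 and the kinase gene Lck by 0.58. Of the CD3 genes, Cd3e fell by 0.43 (adjusted p = 0.0302), whereas Cd3d (-0.28, adjusted p = 0.111) and Cd3g (-0.37, adjusted p = 0.0901) were not called. Leaving out 1 library left between 8 and 14 members called lower, and 2 were called in the fit with the transplanted libraries.

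Genes that respond to a T cell receptor signal during positive selection changed in both directions. Of 18 tested members 9 fell, 3 rose and 6 were not called, and the median log2 change was -0.35. Among all tested genes 22.8% were called lower and 22.9% higher. The share of rises (16.7%) was below that of all tested genes and does not support a rise of the list. Of the falls, 3 were of genes below 1 FPKM in every knockout, and of the other 15 members 6 fell and 3 rose. The median holds those 3 falls as well and does not support a direction of the list. Cd69, an early activation marker, fell from 28.1, 29.3 and 24.7 FPKM to 4.80, 4.16 and 1.34 FPKM (log2 change -2.78, SE 0.34, adjusted p = 0.00134). Cd5, a receptor whose level follows signal strength, fell from 160, 156 and 175 FPKM to 45.4, 72.6 and 29.7 FPKM (-1.80, SE 0.30). The early growth response gene Egr3 fell from 1.73, 2.54 and 2.31 FPKM to 0.18, 0.20 and 0 FPKM. Knockout 3 had the lowest value of all 6 libraries for Cd69, Cd5 and Egr3.

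Other members went the opposite way or stayed. The Ikaros family gene Ikzf2 rose from 4.88, 4.73 and 3.97 FPKM to 13.3, 17.5 and 14.3 FPKM (log2 change 1.53, SE 0.12, adjusted p = 0.000327), and Pdcd1, which encodes PD-1, from 2.53 to 4.49 FPKM to 7.13 to 14.4 FPKM. Gata3 rose by 0.48. Nr4a1 was at 17.4 to 23.0 FPKM in controls and 22.6 to 26.2 FPKM in knockouts and was not called. The number of members called lower was 4, 4 and 5 without control 1, 2 and 3.

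Markers of mature T cells did not move as a group. Of 16 tested, 7 rose (43.8%, against 22.9% of all tested genes), 2 fell (12.5%, against 22.8%) and 7 were not called. Il7r, Runx3 and Ly6c1 passed the filter through the knockouts, and of the other 13 members 4 rose and 2 fell. On chromosome 15 lie 3 of the 16 (Il7r, Itgb7 and Ly6c1, all called higher). Il7r, the interleukin-7 receptor, rose from 0.80, 0.52 and 0.72 FPKM to 16.9, 4.88 and 10.8 FPKM (log2 change 2.68, SE 0.38, adjusted p = 0.00246). Itgb7, an integrin for homing to the gut, rose from 5.27 to 5.71 FPKM to 39.7, 15.8 and 49.2 FPKM. Klf2, a transcription factor of thymic exit on chromosome 8, rose from 0.89 to 1.002 FPKM to 5.09, 4.97 and 14.4 FPKM (2.09, SE 0.37), and the CD8 lineage factor Runx3 from 0.32 to 0.52 FPKM to 5.70, 1.61 and 4.44 FPKM. Knockout 2 was the lowest of the knockouts for Il7r, Itgb7, Klf2 and Runx3. S1pr1, the exit receptor itself, was under 0.3 FPKM in controls and at 0.64, 0.62 and 1.39 FPKM in knockouts, and was not tested. Cd52 fell by 1.52 and Gimap6 by 1.64. Without knockout 1 or 3 the number called higher was 4, as fewer genes then passed the filter.

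Gamma-delta and innate-like genes were mostly too low to test, and 6 of the 17 with values passed. Of the 6 tested, 4 rose (66.7%, against 22.9% of all tested genes). Tcrg-C4 and Cd163l1 had passed through the knockouts, and of the other 4 members 2 rose. Besides Gzma, the rises were Tcrg-C1, Tcrg-C4 and Cd163l1, the gamma chain constant regions and a scavenger receptor of gamma-delta cells. Tcrg-C1 was at 1.54, 0.53 and 2.20 FPKM in controls and 31.8, 4.16 and 8.41 FPKM in knockouts (log2 change 2.33, SE 0.68, adjusted p = 0.0316), and Tcrg-C4 at 0.08 to 0.94 FPKM and 32.3, 1.77 and 11.1 FPKM. Both calls were lost when a control was left out, whichever it was (adjusted p = 0.0583 to 0.0991 for Tcrg-C1 and 0.0829 to 0.112 for Tcrg-C4), and that of Tcrg-C1 without knockout 3 (0.0591). The gamma-delta factor Sox13 and the innate factor Zbtb16 reached at most 0.69 and 1.19 FPKM and were not tested.

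Ribosome biogenesis and other MYC target genes rose almost without exception. Of 23 tested genes 22 rose (95.7%, against 22.9% of all tested genes), none fell (0), and Wdr12 was not called. The median log2 change was 1.21. Srm, the spermidine synthase, rose from 4.75, 4.07 and 3.71 FPKM to 23.8, 24.2 and 22.2 FPKM (log2 change 2.24, SE 0.09, adjusted p = 5.67e-05). Npm1, a nucleolar chaperone, rose from 62.3, 59.2 and 50.2 FPKM to 163, 155 and 212 FPKM, and Fbl, the fibrillarin of ribosomal RNA methylation, from 35.7 to 39.8 FPKM to 96.4 to 106 FPKM. The RNA polymerase I subunit Polr1b rose from 1.43 to 1.58 FPKM to 6.92 to 7.68 FPKM (1.73, SE 0.08), and Cad, which starts pyrimidine synthesis, from 1.1995 to 1.26 FPKM to 5.73 to 6.08 FPKM. Npm1 was highest in knockout 3. No knockout overlapped a control for any of the 22, which were chosen as called, and the same held for 58.7% of all tested genes. The count called higher was 22 without each library in turn and with a common sum, and 5 in the fit with the transplanted libraries.

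Mitochondrial genes rose too. All 13 protein genes of the mitochondrial genome were higher (100%, against 22.9% of all tested genes), with a median log2 change of 0.88. Their summed levels were 6391 to 7844 FPKM in controls and 13030 to 13840 FPKM in knockouts. mt-Nd6 rose from 257, 242 and 275 FPKM to 875, 796 and 826 FPKM (log2 change 1.69, SE 0.08, adjusted p = 7.31e-05), and mt-Co1, the most abundant, from 2920, 2616 and 3284 FPKM to 5103, 4720 and 4879 FPKM. Nuclear subunits of oxidative phosphorylation moved less, with a median of 0.26. Of the 24, 15 were called higher (62.5%, against 22.9% of all tested genes) and none lower (0). Ndufb9 and Cox6c had the largest rises of that list (1.15 and 0.97), and both are on chromosome 15. With FPKM scaled to a common sum 7 of the 24 were called higher, and 9 were without control 1 or control 2.

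Glycolysis genes were mixed, with 7 of 17 higher (41.2%, against 22.9% of all tested genes) and 1 lower (5.88%, against 22.8%). Of the rises Hk2 passed the filter through the knockouts. The members showed a high knockout 2: Tpi1 was at 17.7 to 20.8 FPKM in controls and 34.3, 71.2 and 34.1 FPKM in knockouts (log2 change 1.159, SE 0.28, adjusted p = 0.0176), and Aldoa at 11.5 to 12.9 FPKM and 11.4, 36.6 and 12.2 FPKM and was not called. Ldha, the lactate dehydrogenase, rose from 46.9 to 52.4 FPKM to 73.5, 97.2 and 67.8 FPKM. Tpi1 lost its call without control 1 (adjusted p = 0.0569) or control 3 (0.0583). The number called higher was 4 with a common sum and 3 to 4 without a control.

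Among cell cycle genes, those of S phase mostly rose and those of mitosis were mostly not called. Of 20 S phase genes 15 rose and none fell (0), with a median log2 change of 0.62. Of 20 mitosis genes none rose (0), 4 fell and 16 were not called, with a median of -0.13. Among all tested genes 22.9% were called higher and 22.8% lower. The share of falls among mitosis genes was near that of all tested genes and does not support a fall of the list. The replicative helicase gene Mcm6 rose from 33.9, 31.3 and 31.7 FPKM to 71.4, 75.0 and 81.6 FPKM (log2 change 1.21, SE 0.07, adjusted p = 0.000146), and the other 5 MCM genes of the complex rose by 0.71 to 0.97. The licensing factor Cdc6 rose from 4.92 to 5.57 FPKM to 9.34 to 10.8 FPKM. Ccnb2, a mitotic cyclin, fell from 65.1 to 73.4 FPKM to 52.3 to 55.4 FPKM, and the proliferation marker Mki67 from 110 to 128 FPKM to 93.2 to 104 FPKM (-0.29, SE 0.08, adjusted p = 0.0275). The call of Mki67 was lost without control 1 or 2 or knockout 1 or 3 (adjusted p = 0.0649 to 0.0913). With a common sum 9 mitosis genes were called lower, and 2 without control 1. In the fit with the transplanted libraries 0 S phase genes were called higher and 0 mitosis genes lower.

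Regulators of the G1 phase changed in both directions. Cdk6, a partner of D cyclins, rose from 5.15 to 6.37 FPKM to 12.5, 22.8 and 14.7 FPKM, and Cdk4, on chromosome 10, from 13.8 to 14.5 FPKM to 25.5, 33.3 and 46.0 FPKM, highest in knockout 3. Cyclin D3 (Ccnd3), the D cyclin of thymocytes, fell from 72.6, 77.7 and 92.2 FPKM to 45.9, 49.6 and 35.2 FPKM (log2 change -0.88, SE 0.15). The CDK inhibitors were split, with Cdkn2d (-1.11), Cdkn1b (-0.93) and Cdkn2c (-0.53) lower and Cdkn1c (1.52) and Cdkn1a (1.25) higher. Cdkn2a was at 0.03 to 0.26 FPKM in controls and 1.91, 0.996 and 1.34 FPKM in knockouts, short of the filter.

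The anti-apoptotic genes Bcl2, Bcl2l1 and Mcl1 fell. Bcl2 went from 2.49, 1.67 and 2.02 FPKM to 0.70, 0.33 and 0.40 FPKM (log2 change -1.05, SE 0.15, adjusted p = 0.00272), Bcl2l1, which encodes BCL-XL, from 24.7 to 30.1 FPKM to 12.1 to 17.1 FPKM, and Mcl1 from 95.5 to 124 FPKM to 60.7 to 73.0 FPKM. Of the pro-apoptotic members Bax rose from 38.4 to 40.4 FPKM to 64.1 to 77.0 FPKM (0.79, SE 0.08) and Bid rose by 0.70, whereas Bbc3 fell by 0.87. In total 2 of 11 tested BCL2 family genes rose (18.2%, against 22.9% of all tested genes) and 4 fell (36.4%, against 22.8%). Of the falls, Bcl2 was below 1 FPKM in every knockout. Among 14 tested p53 targets 2 rose (Cdkn1a and Bax, 14.3%) and 4 fell (28.6%), shares near those of all tested genes (22.9% and 22.8%). The falls were led by the death receptor gene Fas, from 56.2, 60.3 and 55.0 FPKM to 21.5, 11.5 and 22.6 FPKM, and Btg2, from 312 to 320 FPKM to 107 to 122 FPKM (-1.44, SE 0.07, adjusted p = 7.93e-05).

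Cytokine receptor genes were divided. The interleukin-4 receptor gene Il4ra fell from 64.6, 63.0 and 67.6 FPKM to 13.2, 14.8 and 13.6 FPKM (log2 change -2.15, SE 0.07, adjusted p = 1.95e-05), and Il21r from 96.4 to 105.1 FPKM to 34.0 to 41.4 FPKM. Il7r and Il2ra rose as described, and the kinase gene Jak3, which acts downstream of the common gamma chain, rose from 1.67 to 2.28 FPKM to 4.59 to 5.95 FPKM. The receptor chain gene Il2rg itself, on the X chromosome, fell by 0.37. The feedback inhibitor gene Socs1 fell by 0.93 and Socs3 rose by 0.93. Of 19 tested genes in this list 6 rose (31.6%, against 22.9% of all tested genes) and 7 fell (36.8%, against 22.8%). Of the rises Il7r passed the filter through the knockouts.

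Among genes known from T cell leukaemia, 7 of 20 tested rose (35.0%, against 22.9% of all tested genes) and 4 fell (20%, against 22.8%). Of the rises, Myc and Il7r passed the filter through the knockouts and lie on chromosome 15. Of the other 18 members 5 rose and 4 fell. In the fit with the transplanted libraries 4 were called higher and 0 lower. The transcription factor genes Tal1, Tlx1, Tlx3, Lmo1 and Hoxa9 were at 0 in all 6 libraries, and Lmo2 was under 0.05 FPKM. Myc, Il7r, Notch1, Notch3 and Jak3 led the rises. Fbxw7, which targets NOTCH1 and MYC for degradation, fell by 0.39.

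Of the remaining lists, the interferon-stimulated genes had 1 rise, Bst2 (from 7.38 to 11.3 FPKM to 24.2 to 40.8 FPKM), and 1 fall, Stat2, among 13. Each was 7.69% of that list, against 22.9% and 22.8% of all tested genes. The linker histone gene H1f0, on chromosome 15, rose from 23.8, 26.4 and 43.0 FPKM to 113, 227 and 128 FPKM (log2 change 2.27, SE 0.32). H1fx fell from 8.19 to 10.8 FPKM to 0.30, 2.97 and 4.45 FPKM (-1.81, SE 0.51, adjusted p = 0.0289), a call lost when a control was left out, whichever it was (0.0654 to 0.0846) and with a pseudocount of 0.1 (0.0629). Of the immediate early and heat shock genes 6 of 11 rose (54.5%, against 22.9% of all tested genes). The 2 falls (18.2%, against 22.8%) were Jund and Dnajb1. Beside Fos and the Hspa1 genes, which passed the filter through the knockouts, the rises were Junb, Ier2 and Hsp90aa1. Of the 8 members other than those 3, 3 rose and 2 fell. Jun was high in knockout 2 alone, at 14.1 FPKM against 1.57 and 1.08 FPKM, and was not called. Chemokine and adhesion receptors had 2 rises (18.2%) and 5 falls (45.5%) among 11, against 22.9% and 22.8% of all tested genes. Cxcr4, the receptor for CXCL12, was lower by 0.64.

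Transcripts named for other cell types changed in a few cases. Cd79b, a B cell receptor component, fell from 5.64, 5.13 and 6.61 FPKM to 0, 0.03 and 0.08 FPKM (log2 change -2.71, SE 0.11, adjusted p = 5.74e-05), and Ighm, the immunoglobulin mu constant region, from 178 to 213 FPKM to 94.9 to 128 FPKM. The B cell genes Pax5, Ebf1 and Ms4a1 were near 0 in both groups. H2-Ab1, a class II gene, rose from 0.74 to 0.90 FPKM to 3.28 to 7.11 FPKM, while Cd74, its invariant chain, was at 1.116 to 1.56 FPKM throughout. Tfrc, the transferrin receptor of dividing and erythroid cells, rose by 1.59 and Pecam1 by 0.71. Col1a2 was under 0.04 FPKM in controls and at 6.17, 19.99 and 0.77 FPKM in knockouts, with Col1a1 at or under 0.11 FPKM in every library. The macrophage genes of highest level, Lyz2 and Cd68, and the cytotoxic gene Prf1 overlapped between the groups, with Lyz2 at 0.15 to 1.57 FPKM in controls and 1.15, 5.61 and 6.46 FPKM in knockouts.

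**Figure D3:**
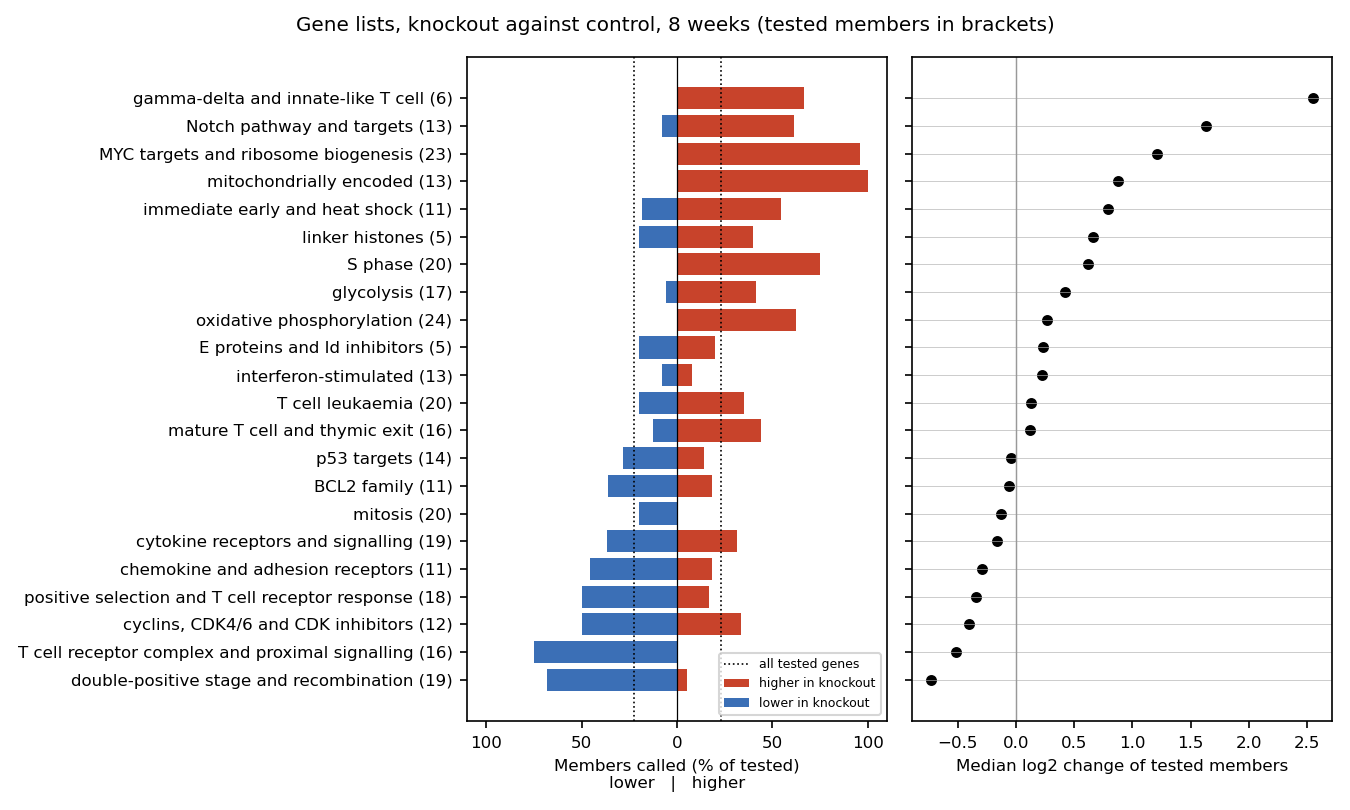
Left, the share of tested members of each gene list that were called lower (blue, to the left) and higher (red, to the right) in the knockout, with the share over all tested genes as dotted lines (22.8% and 22.9%). Right, the median log2 change of the tested members. Lists with at least 5 tested members are shown, from the double-positive genes (-0.73) at the bottom to the gamma-delta and innate-like genes (2.55) at the top. Shares and medians include members that passed the filter through only the knockouts or only the controls. Among them were 2 of 6 in the gamma-delta list and 4 of 13 in the Notch list. The place of such lists in the order does not support a direction.

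Receptor gene segments set each knockout apart from the controls and from the other knockouts. The shares below are over the 34 beta V segments that have a symbol in the annotation used. Of these, 19 were listed at 0 in all 6 libraries, Trbv13-1, Trbv13-2 and Trbv13-3 among them. Whether those 19 were unexpressed or not counted was not tested. The shares are therefore of the segments with values and not of all V usage. In the controls no named beta chain V segment took more than 17.0% of the summed Trbv FPKM, and the most abundant were Trbv1, Trbv2 and Trbv29 in similar amounts. Knockout 1 had Trbv1 at 1342 FPKM, 78.2% of its Trbv sum, and Trbv5 at 369 FPKM (21.5%). Knockout 2 had Trbv29 at 132 FPKM, 66.9% of a Trbv sum of 197 FPKM, against control sums of 2073 to 2194 FPKM. A single identifier without a symbol, ENSMUSG00000076464, was at 586 FPKM in knockout 2, at 7.57 and 0.68 FPKM in knockouts 1 and 3 and at 52.3 to 58.0 FPKM in controls. Its locus was not settled here; counted among the beta V segments it would hold 74.9% of a sum of 783 FPKM in knockout 2, and Trbv29 16.8%. Knockout 3 had Trbv2 at 1366 FPKM (55.5%) and Trbv19 at 711 FPKM (28.9%). The leading named segment of each knockout was at 11.1 FPKM or less in the other 2 knockouts. Segments are near-identical in part, so values of single segments are uncertain.

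The constant regions and the alpha chain showed a similar spread. Trbc1 was at 948, 891 and 995 FPKM in controls and 4.64, 98.7 and 692 FPKM in knockouts 1, 2 and 3, while Trbc2 was at 3183 to 3411 FPKM and 3324, 3361 and 2199 FPKM. Trac fell from 986, 1044 and 987 FPKM to 502, 632 and 506 FPKM. The most abundant alpha V segment held at most 5.73% of the Trav sum in controls, and in knockouts 11.7% (Trav13n-4), 42.3% (Trav21-dv12) and 63.5% (Trav13-2). J segments at the V-proximal end of the alpha locus, Traj52 to Traj61, made up 13.9%, 10.1% and 11.8% of the Traj sum in controls and 36.1%, 27.1% and 42.8% in knockouts. Trdv4, a delta V segment, was under 0.7 FPKM in controls and at 19.1, 8.47 and 280 FPKM in knockouts, and the gamma locus segments summed to 5.73 to 7.07 FPKM and 324, 18.3 and 96.2 FPKM. J segments are short, which makes their FPKM coarse. Over all receptor and immunoglobulin segments, 6 of 173 tested were called higher and 87 lower, where 22.9% and 22.8% of all tested genes were.

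**Figure D4:**
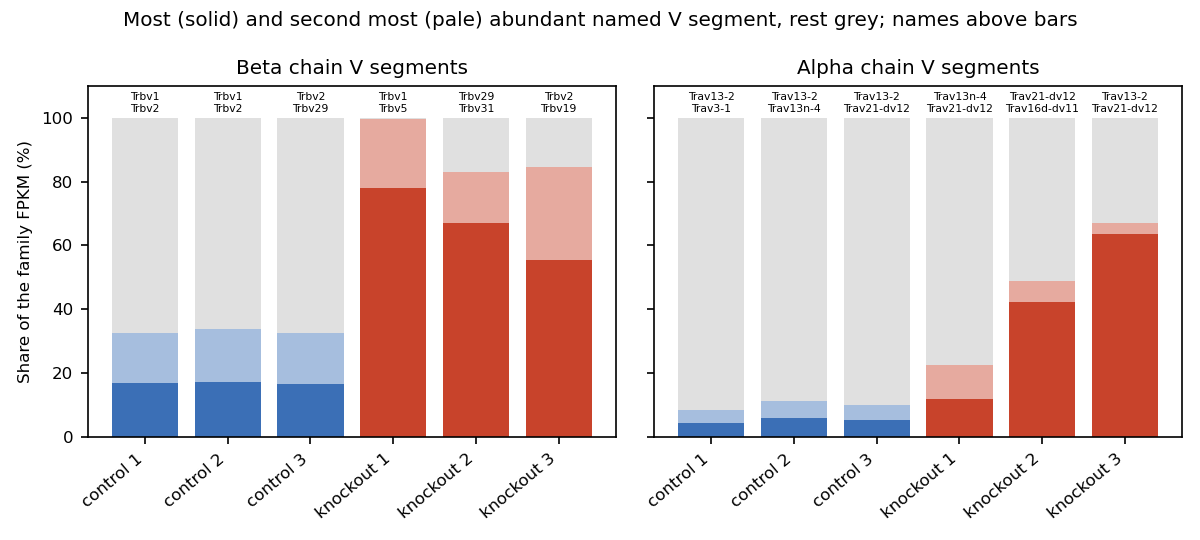
Share of the summed FPKM of beta (left) and alpha (right) V segments with a symbol held by the most abundant (solid) and second most abundant segment (pale) in each library, with their names above the bars and the rest in grey. The leading named beta segment holds 16.5% to 17.0% in controls (blue) and 55.5% to 78.2% in knockouts (red). The identifier without a symbol is not drawn, and with it the share of Trbv29 in knockout 2 would be 16.8%. Of the 34 beta segments with a symbol 19 were listed at 0 in every library, so the shares are of the segments with values.

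Outside the receptor loci, the knockouts also differed from each other in a set of genes that were steady in the controls. The 10 genes with the largest spread among knockouts, chosen for that spread and given with no test, were Ly6k, Mgam, Laptm4b, Uaca, Wls, Odf3b, Adam12, Selenop, Aldh1b1 and Emx2. Mgam, an intestinal glucosidase gene, was at 23.6 FPKM in knockout 1, at 0 and 0.04 FPKM in the others, and at 2.41 to 3.36 FPKM in controls. Laptm4b, a lysosomal membrane protein gene, was at 27.4 FPKM in knockout 2 against 0.25 and 0.53 FPKM, with controls at 7.003 to 8.41 FPKM. Wls, which carries Wnt proteins to the surface, kept 18.3 FPKM in knockout 2 and 0.32 and 0.95 FPKM in the others, with controls at 24.5 to 27.2 FPKM. Emx2, a homeobox gene, was listed at 0 in all controls and at 11.7, 20.7 and 1.44 FPKM in knockouts 1, 2 and 3. Ly6k, Laptm4b, Odf3b and Selenop of these 10 are on chromosome 15. Knockout 2 was the highest of all 6 libraries for Ly6k, Laptm4b, Uaca, Odf3b, Aldh1b1 and Emx2.

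The 8-week effect was set against that at 4 weeks, where 3 controls and 3 knockouts of the same genotypes were in a separate table. Over 10489 genes tested at both ages, the knockout effect was higher at 8 weeks for 930 (8.87%) and lower for 983 (9.37%), by limma's interaction term (median SE 0.14). Of 2320 genes called higher at 8 weeks, 910 had a higher effect than at 4 weeks and 2 a lower one, and their median effects were 0.63 and 0.22. Of 2460 genes called lower at 8 weeks, 936 had a lower effect and 0 a higher one, with medians of -0.54 and -0.16. The genes of these counts were chosen by the 8-week values, which tilts the counts towards larger effects at 8 weeks. At 4 weeks control 1 and knockout 1 had Xist under 0.1 FPKM and the other 4 libraries expressed it at 87.7 to 164 FPKM, so each group held 1 library of that kind there and not at 8 weeks. Chromosome 15 stood at 0.26 to 0.31 in the 4-week knockouts, below the 0.60 to 0.74 at 8 weeks.

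By function, the difference between the ages was uneven. The effect was higher at 8 weeks for 17 of 23 ribosome biogenesis genes (median effects 1.21 and 0.50), 13 of 20 S phase genes (0.62 and 0.12) and 9 of 12 mitochondrially encoded genes (0.91 and 0.20). It was lower for 11 of 19 double-positive stage genes (-0.73 and -0.28) and 6 of 16 T cell receptor complex genes (-0.51 and -0.13). For mature T cell genes 7 of 16 had a lower effect at 8 weeks, with medians of 0.12 and 0.91, and for interferon-stimulated genes 5 of 13, with medians of 0.22 and 0.54. Tcf3 itself did not differ, with effects of -1.63 at 8 weeks and -1.77 at 4 weeks (adjusted p = 0.586 for the difference). Notch1 (2.31 and 1.43, adjusted p = 0.172) and Dtx1 (3.29 and 2.95, adjusted p = 0.533) were not called different, whereas Myc was (3.16 and 1.51, adjusted p = 0.00168).

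Single genes with the largest differences were Ly6c1, H1f0, Igf2bp3, Elfn2 and Alox5ap, with a higher effect at 8 weeks, and Tdrp, Arl5c, Rag2, BB031773 and Mir7669, with a lower one. Rag2 was at 61.2, 65.0 and 59.3 FPKM in the 4-week controls and at 40.6, 35.4 and 45.03 FPKM in the knockouts of that age, against 4.53 to 5.93 FPKM at 8 weeks. H1f0 changed direction, with an effect of -1.31 at 4 weeks and 2.27 at 8 weeks (difference 3.58, SE 0.42, adjusted p = 0.000981). Igf2bp3 was at 8.94 to 10.2 FPKM in the 4-week controls and at 0.28 to 0.38 FPKM in the 8-week controls, levels from separately normalized tables, and its effects were 0.61 and 3.85. Cd69 (-0.61 and -2.78, adjusted p = 0.0115) and Il4ra (-0.53 and -2.15, adjusted p = 0.00032) had a lower effect at 8 weeks, and Gzma (1.61 and 3.45, adjusted p = 0.0529) and Cd5 (-0.88 and -1.80, adjusted p = 0.106) were not called different.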

How the data were processed

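RNA came from RNeasy mini columns, and NuGEN's Ovation Ultralow chemistry was used for the libraries, per the labels. FPKM per gene were deposited by the authors, and Trimmomatic 0.33, STAR, HTSeq 0.6.1, DESeq2 and mm10 are named in the submitters' processing notes without a role or order. Gene lengths, annotation and whether counting used strand are not given in the sources used here, so overlapping and antisense genes cannot be told apart. Of 43430 Ensembl identifiers, 42462 matched GENCODE vM21, and 0 columns of samples were left unused.

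On the log2(FPKM + 1) scale, genes were compared by limma 3.58.1 (two-sided, intensity trend, Benjamini-Hochberg) in R 4.3.3, using the 6 libraries named in the report and no covariate. This scale understates changes of low genes. The 8 against 4 week difference was an interaction over 12 libraries. On simulated data with 10958 genes, 80 of 100 genes changed by 1 and 94 of 100 changed by 2 were called at 8 weeks, with 11 unchanged genes called. With 10489 genes the interaction recovered 81 and 94, with 13 unchanged genes called. The changed genes were drawn only from those with a mean of at least 5 FPKM in the 8-week controls, and the noise was normal. Recovery of lower genes was therefore not measured. Far fewer genes were changed in the simulation than were called in the data (45.7% at 8 weeks). Since FPKM values of a gene are multiples of 1 read, whole reads were recovered for 15689 of 16270 genes, with at least 99.987% of values whole within 0.02. Genes were kept only where their values fitted whole multiples, so that share does not check the counts. Recovered reads were used for depth and for the read counts given for single genes, and in no fit.

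Named genes were Tcf3, the 12 largest rises and 12 largest falls among called genes with no overlap of knockouts and controls (predicted genes, pseudogenes and receptor segments left out), up to 5 called members of each of 30 gene lists by size of change (the 2 most abundant where none was called), the 10 genes of largest spread among knockouts with a control SD under 0.3, and 5 differences each way between ages. Other list members are given as examples and were chosen after their values were seen. The members and lists were chosen with earlier results of these data known. Alternatives covered the pseudocount, the filter, scaling, variance settings, a replicate block, added libraries, chromosomes left out and each library left out. Figures were drawn with matplotlib 3.10.9 in Python 3.11.15. Some list members that counts include are not reported here by name.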

Additional observations from a re-analysis of the deposited data

Results flagged for a closer look

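The knockout effect at 8 weeks was tested against that at 4 weeks with limma's interaction term, and 930 genes had a higher and 983 a lower effect at 8 weeks. The largest higher effects belonged to Ly6c1 (difference 3.73 on the log2 scale), H1f0 (3.58), Igf2bp3 (3.24), Elfn2 (2.54) and Alox5ap (1.97). The largest lower effects belonged to Tdrp (-2.77), Arl5c (-2.71), Rag2 (-2.71), BB031773 (-2.67) and Mir7669 (-2.498). Ly6c1, H1f0 and Elfn2 are on chromosome 15, which stood at 0.60 to 0.74 in the 8-week knockouts and at 0.26 to 0.31 in the 4-week knockouts. Mir7669 rested on 5, 3 and 5 reads in the 8-week controls and 0, 0 and 1 in the knockouts. Each of the 10 genes passed the threshold in every alternative fit in which it was tested.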

How the results depend on the processing

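At 8 weeks the counts were 2511 genes higher and 2494 lower. They moved by more than 1.5 times with a mean of at least 5 FPKM (1612 higher, from 6295 genes tested) and in the fit with the 4 transplanted libraries (541 and 518). The count lower also moved by more than 1.5 times without control 1, 2 or 3 (1555, 1537 and 1655). Leaving out 1 library gave 1908 to 2118 higher and 1537 to 2503 lower. With a common sum per library the counts higher and lower were 1891 and 3381, and without chromosome 15 genes 2232 and 2468. They were 2456 and 2420 without X and Y genes and 2535 and 2428 without receptor segments, both settings chosen after seeing the data. For the difference between ages (930 and 983), a common sum gave 594 higher, array weights 1480 lower, and leaving out 1 library 510 to 1021 higher and 504 to 1158 lower, with the pairs 646 and 545, 606 and 535, and 747 and 626 without 8-week control 1, 2 and 3, 510 and 504 and 535 and 523 without 4-week control 2 and 3, and 600 and 639 without 4-week knockout 1.

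Same-numbered libraries did not pair, with correlations of their deviations of 0.05, 0.07 and 0.06, although each library correlated best with its own number. With the replicate number as a block, 2302 genes were higher and 2212 lower at 8 weeks, and 591 and 587 in the difference between ages. The block ended no call of a named gene.

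In the fit with the transplanted libraries 58 named genes lost the call and 56 did not change side. Cd68, not called in any fit, ranged from -0.00405 without control 2 to 0.224 without control 3. Lyz2 was called without knockout 1 (adjusted p = 0.0121). Depth limits genes near 0 FPKM, such as Mir7669 with 3 to 5 reads in the controls.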
